A study of Equus caballus with 6 samples.

Results

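The comparison set superficial articular cartilage of the adult horse against deep articular cartilage, each measured on 1 single-colour array. Its members were the probes well above background on both arrays: 3713 of the 43603 non-control probes (8.52%). Another 7812 probes (17.9%) were well above background on the superficial array only and 1016 (2.33%) on the deep array only, and for these at most a bound on the difference can be given. By gene, 1288 of the 13704 genes named on the array (9.40%) were measured on both arrays at their reported probe, the brightest of the gene's probes over all arrays. Of the others, 2700 were above background in superficial cartilage only (60.8% of the 4440 genes above background on either array), 412 in deep cartilage only (9.28%), and 9264 on neither. The other 40 were above background on both arrays but not at the reported probe, 24 of them measured on both at another probe and 16 seen through different probes on each. A bound could be given for 2058 of the 2700 genes and 402 of the 412. For the rest, the reported probe was not itself above background or its signal did not exceed the value used for the dim array, so no direction is given.

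The study compared layers of adult cartilage with regions of the fetal hindlimb at gestational day 40, with 6 arrays of 6 regions in all. The superficial sample was the outer 10% of the cartilage depth and the deep sample lay at 50 to 90% of the depth, in cartilage of the stifle (the horse's knee joint) 1500 to 2000 µm thick, from adults labelled as 15 years old. A middle sample from 20 to 30% of the depth is given beside them where it helps to place a value. In each case, cells were cut by laser from stained frozen sections of 10 µm, and RNA was amplified by PCR from cDNA of mRNA before 250 ng of cDNA, carrying the dye Cy3, was incubated with each array for 17 h at 65 °C. No treatment or genotype was named for the adult samples, and how many animals stand behind each array is not given in the sources used here. With 1 array per layer no difference has a replicate check, so no p-value is given and every value describes this pair of arrays.

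Articular cartilage is layered. In the superficial zone, flattened chondrocytes lie among collagen fibres that run along the surface and secrete lubricin, the product of PRG4, which lets the joint surfaces slide. Deeper down, rounder chondrocytes stand in columns among upright collagen fibres, and the matrix is richer in aggrecan, the large proteoglycan that holds water under load. COMP and CILP are matrix proteins known from the deeper layers, and THBS1 encodes thrombospondin, a matrix protein that binds cells and TGF-beta.

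The results on the markers rest on probes of 60 bases, shown here 5′ to 3′ with the start that the files give in the annotated transcript. For PRG4 and for CYTL1, a secreted protein of chondrocytes, 5 probes each were measured, and these are shifted copies of 1 stretch. Capitals mark the 56 bases that all 5 probes of the gene share, so the 5 values are repeats of 1 site and not independent evidence. The 2 COMP probes have separate sequences, as do the 2 TIMP2 probes shown, which are given because they disagree with another TIMP2 site downstream. CILP, CDKN1A and SERPINA3 each had the 1 probe shown. The marker THBS1 also had only 1 probe, which is not shown.
PRG4, start 108: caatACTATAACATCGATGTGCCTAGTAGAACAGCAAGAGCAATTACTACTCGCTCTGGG
PRG4, start 112: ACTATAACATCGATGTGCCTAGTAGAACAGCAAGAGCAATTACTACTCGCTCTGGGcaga
CYTL1, start 276: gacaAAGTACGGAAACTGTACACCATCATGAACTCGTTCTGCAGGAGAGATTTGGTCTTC
CYTL1, start 280: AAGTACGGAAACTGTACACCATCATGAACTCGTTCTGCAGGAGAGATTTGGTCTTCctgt
COMP, start 1549: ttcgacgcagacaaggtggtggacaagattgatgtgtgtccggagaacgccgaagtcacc
COMP, start 2198: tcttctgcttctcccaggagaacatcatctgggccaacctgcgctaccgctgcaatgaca
CILP, start 3349: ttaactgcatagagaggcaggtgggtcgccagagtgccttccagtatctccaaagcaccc
CDKN1A, start 451: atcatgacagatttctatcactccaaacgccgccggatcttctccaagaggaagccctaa
SERPINA3, start 1209: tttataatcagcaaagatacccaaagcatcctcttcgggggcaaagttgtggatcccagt
TIMP2, most 5′ site: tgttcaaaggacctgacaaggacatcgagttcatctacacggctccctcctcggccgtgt
TIMP2, start 230: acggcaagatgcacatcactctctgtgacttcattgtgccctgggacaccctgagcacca

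Signals are given after scaling each array so that the 75th percentile, taken over the 1765 probes that were well above background on each of the 6 arrays, equals 1000. On this scale the lowest signal well above background was 3.22 in superficial, 15.5 in middle and 8.59 in deep cartilage. Detection differed widely: 26.4% of probes were well above background in superficial, 8.40% in middle and 10.8% in deep cartilage. The superficial and deep arrays lay on the same slide and came from the same scan. A gene that is not well above background in deep cartilage may therefore be below what that array could show, and a bound is the superficial signal over the higher of 8.59 and the probe's own deep signal. Fewer cells of a type and less RNA per cell cannot be told apart in such samples.

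Across the 1288 measured genes the median difference, superficial minus deep, was -0.81 on the log2 scale, so the typical gene was 1.76-fold lower in superficial cartilage. The quartiles were -1.77 and 0.31, and 394 genes had a difference above 0. This zero point depends on the scaling: with the 50th percentile over all probes the median difference was 0.27. Differences are therefore given both as measured and, for groups of genes, relative to the median of all measured genes. At least 4-fold differences were found for 144 genes higher in superficial cartilage (11.2%) and for 266 genes lower (20.7%). Relative to the median, the split turned round, with 206 genes higher (16%) and 154 lower (12%). With the 50th percentile over all probes it was 235 higher and 123 lower. Just past the 4-fold line lay ZBED5 at 2.01 and LUC7L at -2.004, and just short of it SDC4 at 1.99 and SEMA3G at -1.99.

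The errors that can be measured here are those of spots and probes. The median spot error of a difference, as the scanner software gives it, was 0.22 on the log2 scale, and overlapping probes of a site differed by a median SD of 0.19. Separate sites of a gene differed more: over 126 genes with at least 2 separate measured sites, the median SD between sites was 0.64 and the pooled SD 1.73. In 95 of these 126 genes all measured sites lay on the same side of 0, and in 27 they differed from each other by at least 4-fold. Of the measured genes, 85 also had a site above background on 1 array only, and in 28 of them its bound lay at least 2-fold on the other side of 0 from the reported probe. Of the 410 genes at least 4-fold apart, 363 were measured at only 1 site, so their size rests on that site. Distant sites of a transcript were often not detected together. For 299 genes with sites at least 300 bases apart, both ends were detected in 76 in superficial and 18 in deep cartilage, only the 3′ site in 41 in superficial and 23 in deep cartilage, and only the 5′ site in 47 in superficial and 31 in deep cartilage.

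PRG4, the lubricin gene, had a signal of 32461 in superficial, 104 in middle and 1081 in deep cartilage. It was 30.0-fold higher in superficial than in deep cartilage, a log2 difference of 4.91, and the 5 overlapping probes had an SD of 0.17. THBS1, measured at only 1 probe, had a signal of 8125 in superficial, 9231 in middle and 49.4 in deep cartilage. It was 164.5-fold higher in superficial than in deep cartilage, the largest measured difference in that direction among named genes. THBS1 was thus about equally bright in the superficial and middle samples and dim only in the deep one, whereas PRG4 was brightest at the surface and dimmest in the middle sample.

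COMP, a pentameric protein that links collagen fibres, had a signal of 6523 in superficial, 3669 in middle and 106285 in deep cartilage at the probe starting at base 2198. It was 16.3-fold lower in superficial than in deep cartilage there, and the log2 differences at the 2 separate COMP sites were -4.03 and -4.24. CILP, the cartilage intermediate layer protein, had a signal of 194 in deep cartilage, against 24.9 in middle cartilage, and its 2.65 in superficial cartilage was not well above background. It was therefore at least 60.3-fold lower in superficial cartilage. CILP2, a related matrix protein, went the same way: its 3.02 in superficial cartilage was not well above background, against 41.8 in deep cartilage, at least 12.97-fold lower. Of the 4 markers, PRG4 and THBS1 were thus higher and COMP and CILP lower in superficial cartilage.

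Chondrocyte genes were only in part detectable. Of 17 chondrocyte markers on the array, 8 were measured on both arrays, CILP only in deep cartilage, and 8 on neither, among them COL2A1, the main collagen of cartilage, and the collagen IX chains COL9A1, COL9A2 and COL9A3. None of the 6 COL2A1 probes was well above background in superficial or deep cartilage, although the reported one had a signal of 42857 in fetal transient cartilage on the other slide. COL9A2 likewise had 40749 in fetal transient cartilage and was not well above background in either adult layer. Of the measured markers, 1 was at least 2-fold higher in superficial cartilage and 4 at least 2-fold lower, and the summed signal of the list was 11096 in superficial and 123231 in deep cartilage, mostly from COMP. The 8 markers measured on both were ACAN, SOX9, COMP, HAPLN1, COL11A1, FMOD, PRELP and CYTL1, without the collagens II and IX. HAPLN1 was the 1 that was higher in superficial cartilage. Whether these markers are enough to identify the samples as cartilage was not tested.

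The measured genes of the list for the superficial zone had no common direction. Of 22 on the array, 8 were above background only in superficial cartilage (53.3% of those above background on either, against 60.8% of all genes), none only in deep cartilage, and 7 were measured on both, with a median difference of -0.20. At least 2-fold differences were 3 higher and 3 lower, against 17.5% and 44.4% of all measured genes in the same directions. Relative to the all-gene median they were 3 higher and 2 lower, against 27% and 24.1%. The higher 3 were PRG4, THBS1 and DCN, which encodes decorin, a small proteoglycan on collagen fibres. DCN had a signal of 1348 in superficial and 49.8 in deep cartilage, 27.04-fold higher.

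The genes of this list above background in superficial but not in deep cartilage included matrix and adhesion genes. TNC, tenascin-C, had a signal of 2328 in superficial and 901 in middle cartilage and was not well above background in deep cartilage, at least 271-fold higher at the surface. VCAM1, an adhesion molecule for leukocytes, was at least 236-fold higher in superficial cartilage, where its signal was 2023. SEMA3A, a secreted guidance protein, was at least 140.1-fold higher and HTRA1, a secreted serine protease, at least 88.7-fold higher. ERG, a transcription factor of joint surface chondrocytes, reached only 186 in superficial cartilage, at least 21.7-fold higher. TNFAIP6, CREB5 and CD55 completed the list with bounds between 3.00-fold and 13.6-fold.

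Other genes of the list ran the other way. CLU, clusterin, a secreted chaperone, had a signal of 8008 in superficial, 12051 in middle and 33221 in deep cartilage, 4.15-fold lower at the surface. FN1, fibronectin, was 22891 in superficial and 66667 in deep cartilage, 2.91-fold lower. ABI3BP, a matrix protein, was 3641 in superficial and 4175 in deep cartilage, and its difference of -0.20 lay within the spot error of 0.20. CYTL1 had a signal of 148 in superficial and 7183 in deep cartilage and was not well above background in middle cartilage. At 48.5-fold lower in superficial cartilage it was far from the surface pattern of PRG4, and its 5 probes agreed within an SD of 0.10.

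Few of the genes listed for the middle and deep zones could be compared, as for all named genes, of which 9.40% were measured on both arrays. Of 25 on the array, 16 were above background on neither, 4 only in superficial cartilage, 3 only in deep cartilage, and 2 on both. The 4 were 44.4% of those above background on either array, against 60.8% of all genes. The 3 seen only in deep cartilage were CILP, CILP2 and VIT, which encodes vitrin, a matrix protein with von Willebrand domains. VIT had a signal of 10404 in deep cartilage, against values not well above background in superficial and middle cartilage, and was at least 3232-fold lower in superficial cartilage, the largest bound in that direction. The 4 seen only in superficial cartilage were FGFR3, a receptor that restrains growth of cartilage, at 938, FRZB, a secreted WNT inhibitor, at 150, IBSP, bone sialoprotein, at 484, and HHIP, a hedgehog binding protein, at 29.5. Their bounds were at least 109-fold for FGFR3, 17.5-fold for FRZB, 56.4-fold for IBSP and 3.44-fold for HHIP.

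The proteoglycans divided by gene rather than as a group. Of 19 on the array, 9 were measured on both, with 3 at least 2-fold higher, 3 at least 2-fold lower and a median of -0.43, which is 0.38 above the all-gene median. ACAN, the aggrecan gene, had a signal of 2066 in superficial, 233 in middle and 7452 in deep cartilage, and its 2 measured sites gave -1.85 and -2.22, so it was lower in superficial cartilage at both. HAPLN1, the link protein that ties aggrecan to hyaluronan, ran the other way, with 1285 in superficial and 184 in deep cartilage at the reported probe. Its 2 sites differed by 2.80 and 5.52, both higher in superficial cartilage.

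The small leucine-rich proteoglycans, which coat collagen fibres, also differed among themselves. OGN, osteoglycin, had a signal of 961 in superficial and 426 in deep cartilage, 2.25-fold higher, beside DCN at 27.04-fold higher. FMOD, fibromodulin, had 99.6 in superficial and 469 in deep cartilage, 4.71-fold lower, and OMD, osteomodulin, had 1355 in superficial and 3187 in deep cartilage, 2.35-fold lower. PRELP had 105 in superficial and 102 in deep cartilage, a difference of 0.05. BGN, biglycan, was lower at both of its sites, by -0.54 and -2.40. LUM, lumican, was above background only in superficial cartilage, at least 21.6-fold higher, and so was SRGN, serglycin, a proteoglycan of secretory granules, at least 301-fold higher.

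Cartilage collagens were mostly below what the arrays could show. Of 8 on the array, 6 were above background on neither, against 9264 of all 13704 named genes. COL27A1, a fibrillar collagen of cartilage, had a signal of 176 in superficial, 245 in middle and 4186 in deep cartilage, 23.8-fold lower at the surface. COL11A1 had 570 in superficial and 823 in deep cartilage at the reported probe, 1.44-fold lower, but a site starting at base 6200 was above background only in superficial cartilage, at least 13.9-fold higher. Among 20 other collagens, 6 were above background only in superficial cartilage and 1 only in deep cartilage. The 6 were 60% of those above background on either array, against 60.8% of all genes. COL3A1, a collagen of soft connective tissue, had a signal of 1820 in superficial cartilage, at least 212-fold higher. COL6A3, a chain of the pericellular collagen VI, had 1504 in superficial and 379 in deep cartilage, 3.96-fold higher at the reported probe. Its other site had 2098 in superficial cartilage and was not well above background in deep cartilage, at least 244-fold higher. The collagen I gene COL1A1 was near the detection floor in superficial cartilage, at 4.18, and has no bound. COL1A2 was near the floor at 6.09 at its reported probe, but its site starting at base 4050 had 229 in superficial cartilage, at least 26.7-fold higher than in deep cartilage.

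Of 47 matrix glycoproteins on the array, 11 were measured on both, with 3 at least 2-fold higher (PRG4, THBS1 and THBS2) and 6 lower, and a median of -1.54. Relative to the all-gene median, 3 were higher and 4 lower. THBS2, a second thrombospondin, had a signal of 4648 in superficial, 1992 in middle and 373 in deep cartilage, 12.5-fold higher with an SD of 0.21 between 4 probes. PCOLCE2, an enhancer of collagen processing, had 3781 in superficial and 15600 in deep cartilage, 4.13-fold lower. MATN4, a matrilin, had 7.38 in superficial and 32.3 in deep cartilage, 4.38-fold lower but close to the detection floor. A further 13 were above background only in superficial cartilage and 4 (CILP, CILP2, VIT and EMILIN1) only in deep cartilage. The 13 were 46.4% of those above background on either array, against 60.8% of all genes. SPP1, osteopontin, was at least 79.2-fold higher in superficial cartilage, EFEMP2, a fibulin of elastic fibres, at least 51.4-fold, and POSTN, periostin, at least 12.6-fold.

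Genes of hyaluronan, the long sugar chain of synovial fluid and cartilage, included both of its receptors described here, CD44 and LYVE1, at higher signal at the surface. Of 13 on the array, 5 were above background only in superficial cartilage (71.4% of those above background on either), 2 on both and 6 on neither. CD44, the main hyaluronan receptor, had a signal of 1562 in superficial and 17890 in middle cartilage and was not well above background in deep cartilage, at least 182-fold higher at the surface. LYVE1, a hyaluronan receptor known from lymphatic vessels, had 1504 in superficial and 24.7 in deep cartilage, 60.9-fold higher. HAS2, a hyaluronan synthase, had 11.1 in superficial, 937 in middle and 18.8 in deep cartilage, so that it was bright only in the middle sample. Of 27 genes of glycosaminoglycan synthesis, 13 were above background only in superficial cartilage (86.7% of those above background on either array, against 60.8% of all genes), 1 (CHST12) only in deep cartilage and 1 (CHST6) on both. CSGALNACT1, which starts chondroitin sulfate chains, was at least 43.4-fold higher in superficial cartilage, and SLC26A2, the sulfate carrier, at least 26.8-fold.

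Metalloproteinases, the enzymes that cut matrix, were detected in superficial more than in deep cartilage. Of 31 on the array, 8 were above background only in superficial cartilage (80.0% of those above background on either, against 60.8% of all genes), none only in deep cartilage and 21 on neither. ADAMTS5, an aggrecanase, was measured on both at 2 overlapping probes other than the reported one, with a mean of 796 in superficial and 27.5 in deep cartilage and log2 differences of 3.31 and 6.40. Its other site was above background only in superficial cartilage, at 1660. MMP3, stromelysin, had a signal of 2973 in superficial and 3629 in middle cartilage, so that it was at least 346-fold higher in superficial than in deep cartilage. MMP14, a membrane-bound collagenase, had 430 in superficial and 1481 in middle cartilage and was at least 50.0-fold higher than in deep cartilage. MMP1, a collagenase, was above background in superficial cartilage at all 4 of its sites and in deep cartilage at none, with a bound of at least 38.4-fold at the reported probe. ADAM9, a membrane protease, was the only member measured on both arrays at its reported probe, at 118 in superficial and 325 in deep cartilage, 2.75-fold lower.

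Among 30 protease inhibitors and other proteases, 7 were measured on both, with 1 at least 2-fold higher, 4 lower and a median of -1.45. Relative to the all-gene median, 1 was higher and 2 were lower. TIMP3, a metalloproteinase inhibitor bound to matrix, had a signal of 12930 in superficial, 9329 in middle and 4804 in deep cartilage, 2.69-fold higher with an SD of 0.06 between 5 probes. SERPINA3, an acute-phase inhibitor of serine proteases, had 84.4 in superficial, 1227 in middle and 7116 in deep cartilage, 84.3-fold lower. SERPINE2, an inhibitor of thrombin and plasmin, had 2074 in superficial and 2088 in deep cartilage, a difference of -0.01. CTSK, cathepsin K, a collagen-cutting protease, had 1641 in superficial cartilage and was at least 191-fold higher, and FURIN, which activates secreted proteins, was at least 110.6-fold higher.

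TIMP2, another metalloproteinase inhibitor, gave opposite answers at different sites. At the 5 overlapping probes starting from base 579 the mean signal was 117 in superficial and 9348 in deep cartilage, a log2 difference of -6.32 with an SD of 0.12. At base 230 it was 220 in superficial and 139 in deep cartilage, a difference of 0.66. At the most 5′ site shown above it was 139 in superficial cartilage and not well above background in deep cartilage. The direction for TIMP2 therefore depends on the site, and none is given for the gene.

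Cytokine and NF-kB genes, which drive and answer inflammation, held large differences in both directions. Of 54 on the array, 17 were above background only in superficial cartilage (53.1% of those above background on either, against 60.8% of all genes), 1 only in deep cartilage (BCL3), 14 on both and 22 on neither. Of the 14, 4 were higher and 7 lower by at least 2-fold, and the median was -1.06, and relative to the all-gene median 4 were higher and 3 lower. RELB, an NF-kB subunit, had a signal of 984 in superficial and 8.64 in deep cartilage, just above the floor there, and was 114-fold higher. CCL20, a chemokine, had 3230 in superficial cartilage, at least 376-fold higher. IL6 had 828 in superficial and 57.6 in middle cartilage and was at least 96.5-fold higher than in deep cartilage.

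Several genes of the same list were lower in superficial cartilage. BIRC3, an inhibitor of apoptosis induced by NF-kB, had a signal of 18.05 in superficial and 1650 in deep cartilage, 91.4-fold lower. NFKBIA, the inhibitor of NF-kB, had 961 in superficial and 2952 in deep cartilage, 3.07-fold lower. NOS2, inducible nitric oxide synthase, disagreed between sites: its 3 measured sites gave -4.24, -1.56 and -1.43, but the 5 overlapping probes starting from base 433 averaged 480 in superficial cartilage and were not well above background in deep cartilage, at least 55.9-fold higher. No direction is given for NOS2. CSF3, a granulocyte growth factor, was bright only in the middle sample, at 65.6 in superficial and 18462 in middle cartilage and not well above background in deep cartilage.

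The acute-phase, complement and antimicrobial genes split in the same way. Of 30 on the array, 8 were above background only in superficial cartilage, none only in deep cartilage and 7 on both, with 2 at least 2-fold higher, 4 lower and a median of -1.10. Of the 7, 2 were higher and 3 lower by at least 2-fold relative to the all-gene median. The 8 were 53.3% of those above background on either array, against 60.8% of all genes. PTX3, pentraxin 3, a soluble pattern receptor, had a signal of 11016 in superficial and 61.5 in middle cartilage and was at least 1283-fold higher than in deep cartilage, the largest bound in that direction. DEFB4B, which the array annotates as beta-defensin-1, an antimicrobial peptide, had 8711 in superficial cartilage, at least 1015-fold higher. C1R, a protease that starts the classical complement pathway, was at least 420-fold higher. LCN2, lipocalin 2, had 2836 in superficial and 603 in deep cartilage, 4.71-fold higher, and CFB, complement factor B, had 9805 in superficial and 2862 in deep cartilage, 3.43-fold higher.

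SAA1, serum amyloid A, was bright in all adult layers. Its reported probe had a signal of 62891 in superficial, 164497 in middle and 63636 in deep cartilage, a difference of -0.02, and its 3 sites differed by -0.02, 0.39 and 1.24. Ceruloplasmin (CP), a copper carrier, ran against the surface genes at 53.9 in superficial and 624 in deep cartilage, 11.6-fold lower.

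Immediate-early genes, transcription factors that respond within minutes to stimuli, had a median below that of all genes. Of 31 on the array, 12 were measured on both, with 2 higher and 7 lower by at least 2-fold (17.5% and 44.4% of all measured genes) and a median of -1.52. Relative to the all-gene median, 3 were higher and 6 lower (27% and 24.1% of all measured genes), and the list's median stayed below the all-gene median under every scaling and filter tried. FOSL2, an AP-1 subunit, had a signal of 64.8 in superficial and 4175 in deep cartilage, 64.4-fold lower. JUN had 11.9 in superficial and 374 in deep cartilage, 31.5-fold lower, and FOS had 38.2 in superficial and 224 in deep cartilage, 5.88-fold lower. KLF4, a Krüppel-like factor, ran the other way at 691 in superficial and 25.7 in deep cartilage, 26.9-fold higher. JUNB had nearly equal signals at its reported probe, a difference of 0.00, but its other site had 4.38 in superficial and 2739 in deep cartilage, a difference of -9.29.

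CCN1 and CCN2, matricellular proteins that respond to mechanical load and TGF-beta, differed. CCN1 had a signal of 2055 in superficial cartilage, at least 239-fold higher, while CCN2 was bright on both arrays at 16445 in superficial and 10258 in deep cartilage, 1.60-fold higher with an SD of 0.06 between 5 probes.

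Of 24 stress, p53 and glucocorticoid target genes, 7 were measured on both, with 1 higher and 5 lower by at least 2-fold and a median of -1.21. Relative to the all-gene median, 1 was higher and 1 lower. CDKN1A, the cell cycle inhibitor p21, had a signal of 3.98 in superficial cartilage, just above the floor of 3.22, against 16.4 in middle and 1167 in deep cartilage. It was 293-fold lower in superficial cartilage. ZBTB16, a glucocorticoid-induced transcription factor, had 414 in superficial and 15.8 in deep cartilage, 26.2-fold higher, whereas FKBP5, another glucocorticoid target, had 1637 in superficial and 5657 in deep cartilage, 3.46-fold lower. TSC22D3, also induced by glucocorticoids, was at least 154-fold higher in superficial cartilage and ERRFI1, a feedback inhibitor of EGF receptor, at least 332-fold higher.

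Genes of collagen folding and the secretory pathway were often seen only in superficial cartilage, and the measured ones had a median above that of all genes. Of 45 on the array, 27 were above background only in superficial cartilage (75% of those above background on either, against 60.8% of all genes), 2 only in deep cartilage, 7 on both and 9 on neither. Of the 7, 4 were higher and 2 lower by at least 2-fold, and the median was 1.99. The list's median lay 2.80 above the all-gene median, but between 0.04 and 3.29 above it over all settings. HSPA5, the main chaperone of the endoplasmic reticulum, had a signal of 21953 in superficial, 16884 in middle and 3580 in deep cartilage at the reported probe, and its 2 sites gave 2.62 and 4.80. HSP90B1, a second chaperone there, was at least 259-fold higher in superficial cartilage, SPCS2, a subunit of signal peptidase, at least 239-fold, and PDIA4, a disulfide isomerase, at least 162-fold.

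MIA3, which loads collagen into transport vesicles, had 1602 in superficial and 183 in deep cartilage, 8.75-fold higher. PPIB, a prolyl isomerase of collagen, had 437.5 in superficial and 2233 in deep cartilage, 5.105-fold lower. P3H2, a prolyl hydroxylase of collagen, had 1706 in deep cartilage and was not well above background in superficial cartilage, at least 530-fold lower.

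Among 22 heat shock proteins and other chaperones, 10 were above background only in superficial cartilage and 6 on both, with 1 at least 2-fold higher and 4 lower. Of the 6, 1 was at least 2-fold higher and 2 lower relative to the all-gene median. The 10 were 62.5% of those above background on either array, against 60.8% of all genes. HSP90AB1, a cytosolic chaperone, had a signal of 5000 in superficial and 890 in deep cartilage, 5.62-fold higher. CCT2, a subunit of the actin and tubulin chaperonin, had 133 in superficial and 2795 in deep cartilage, 21.0-fold lower. HSPA9, a mitochondrial chaperone, was 13.4-fold lower at its reported probe, but its 7 probes spread with an SD of 4.16. By site, 2 single probes gave -4.23 and -3.74, and the 5 overlapping probes of another site gave 4.54. The mean over probes was higher in superficial cartilage, but it counts that 1 site 5 times. The direction for HSPA9 therefore depends on the site.

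Glycolysis genes were close to the all-gene median. Of 25 on the array, 8 were measured on both, with a median of -0.48. As measured, 1 was at least 2-fold higher and 3 lower, and relative to the all-gene median 3 were higher and none lower. A further 8 were seen only in superficial cartilage, 47.1% of those above background on either array, against 60.8% of all genes. GAPDH had a signal of 1523 in superficial and 1313 in deep cartilage, a difference of 0.21 at the reported probe, but its other 2 sites were above background only in superficial cartilage, at least 103-fold and 154-fold higher. LDHA, which makes lactate, had 316 in superficial and 1073 in deep cartilage, 3.40-fold lower, while LDHB, the other lactate dehydrogenase subunit, was seen only in superficial cartilage at 1543, at least 180-fold higher.

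Of 20 hypoxia response genes, 6 were measured on both, with 3 higher and 1 lower by at least 2-fold and a median of 1.40. The list's median lay 2.21 above the all-gene median, and between 1.70 and 2.97 above it under the other settings. BNIP3L, a mitophagy receptor, had a signal of 376 in superficial and 10.8 in deep cartilage, 34.8-fold higher. BHLHE40, a transcriptional repressor, had 2004 in superficial and 433 in deep cartilage, 4.63-fold higher. HIF1A, the oxygen-regulated transcription factor, had 648 in superficial, 604 in middle and 373 in deep cartilage, 1.74-fold higher with an SD of 0.89 between 3 probes.

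Of 32 genes of oxidative stress defence and metal binding, 9 were measured on both, with 4 at least 2-fold higher and 3 lower. SOD2, mitochondrial superoxide dismutase, had a signal of 19141 in superficial, 17752 in middle and 3479 in deep cartilage, and all 4 of its sites were higher in superficial cartilage, by 0.46 to 3.15. FTH1, the ferritin heavy chain, had 30938 in superficial and 4770 in deep cartilage, 6.49-fold higher, and SLC39A14, a zinc and iron importer, had 949 in superficial and 31.2 in deep cartilage, 30.4-fold higher. GPX3, a secreted glutathione peroxidase, had 2152 in superficial, 533 in middle and 24579 in deep cartilage, and was lower in superficial cartilage at both sites, by -3.51 and -5.86. SOD1, the cytosolic enzyme, had 918 in superficial and 4130 in deep cartilage, 4.50-fold lower. GSTA1, a glutathione transferase, was seen only in deep cartilage, at least 1552-fold lower in superficial cartilage.

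Signalling genes are given by pathway. Of all genes named on the array, 9.40% were measured on both arrays. Of 44 genes of TGF-beta and BMP signalling, 17 were above background only in superficial cartilage (77.3% of those above background on either, against 60.8% of all genes), 1 (BMPR1A) only in deep cartilage, 4 on both and 22 on neither. INHBA, which forms activin A, had a signal of 1652 in superficial and 2209 in middle cartilage and was at least 192-fold higher than in deep cartilage. GDF6, a growth factor of joints, was at least 88.7-fold higher, BMP6 at least 76.4-fold and TGFB2 at least 38.4-fold. SMAD7, the inhibitory SMAD, had 295 in superficial and 32.8 in deep cartilage, 9.01-fold higher, whereas the receptor TGFBR2 had 5.39 in superficial and 42.99 in deep cartilage, 7.97-fold lower.

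Of 43 FGF, PDGF, EGF, VEGF and PTH ligands and receptors, 13 were above background only in superficial cartilage (52.0% of those above background on either), none only in deep cartilage and 12 on both. The receptor FGFR1 was at least 209-fold higher in superficial cartilage, and PTHLH, parathyroid hormone-related protein, which holds back chondrocyte maturation, at least 41.1-fold. SPRY2, a feedback inhibitor of FGF signalling, had a signal of 271 in superficial and 9.61 in deep cartilage, 28.3-fold higher. EGFR had 176 in superficial and 36.3 in deep cartilage, 4.85-fold higher, a direction that turned with quantile normalization. GAS6, a ligand of the TAM receptors, had 6.88 in superficial and 89.9 in deep cartilage, 13.1-fold lower. ANGPTL7, a secreted angiopoietin-like protein, was close to even at 2902 in superficial and 2615 in deep cartilage.

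Of 34 WNT genes, 21 were above background on neither array and 4 on both, against 9264 and 1288 of all 13704 named genes. LRP1, an endocytic receptor, had a signal of 582 in superficial and 93.3 in deep cartilage, 6.24-fold higher, but its 2 measured probes spread with an SD of 3.40 and it was lower with normexp background correction. LEF1, a transcription factor of the pathway, was seen only in deep cartilage, at least 13.6-fold lower in superficial cartilage. This bound rests on 1 of 2 overlapping probes, at 43.8 in deep cartilage. The other had 1.72 there and was not well above background. In the IGF axis, IGF1R was at least 56.4-fold higher and IGFBP5 at least 80.5-fold higher in superficial cartilage, while IGFBP7 had 777.3 in superficial and 2099 in deep cartilage, 2.70-fold lower.

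The transcription factors of chondrocytes and joints showed no common direction. Of 49 on the array, 8 were measured on both, with 1 at least 2-fold higher and 3 lower, 14 were seen only in superficial cartilage and 3 only in deep cartilage. Of the 8, 1 was higher and 2 lower by at least 2-fold relative to the all-gene median. The 14 were 53.8% of those above background on either array, against 60.8% of all genes. SOX9, the master factor of chondrocytes, had a signal of 285 in superficial, 1396 in middle and 513 in deep cartilage, 1.80-fold lower at the reported probe, while its other site was above background only in deep cartilage, at least 26.2-fold lower in superficial cartilage. MKX, a tendon factor, had 360 in superficial and 153 in deep cartilage, 2.36-fold higher. YAP1, a factor regulated by mechanical load, had 9.61 in superficial and 96.9 in deep cartilage, 10.1-fold lower. SNAI1 and SNAI2, repressors of cell adhesion genes, were seen only in deep cartilage, lower in superficial cartilage by at least 69.7-fold for SNAI1 and at least 157-fold for SNAI2, as was MEF2A at least 10.98-fold.

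Genes of adhesion had no measured member at least 2-fold lower in superficial cartilage. Of 48 on the array, 17 were seen only in superficial cartilage and 3 only in deep cartilage. The 17 were 60.7% of those above background on either array, against 60.8% of all genes. Another 8 were measured on both, with 4 at least 2-fold higher and a median of 0.91. Syndecans, cell surface proteoglycans, made up 3 of the 4: SDC4 had a signal of 6484 in superficial and 1627 in deep cartilage, 3.98-fold higher, SDC3 was 3.84-fold higher and SDC2 2.20-fold higher. CD9, a tetraspanin, was the other, at 2.01-fold, but it was lower in superficial cartilage with quantile normalization. Integrins, the matrix receptors, went both ways: ITGB8 was at least 59.6-fold higher in superficial cartilage, while ITGA5 (at least 213.7-fold) and ITGAV (at least 105.7-fold) were lower. ITGA10, the collagen II receptor of chondrocytes, had 402 in superficial and 695 in deep cartilage, 1.73-fold lower.

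Cytoskeleton, S100 and annexin genes had a median above that of all genes. Of 38 on the array, 20 were above background only in superficial cartilage (69.0% of those above background on either, against 60.8% of all genes), 1 only in deep cartilage (TMSB4X) and 8 on both, with 2 at least 2-fold higher, 1 lower and a median of 0.42, which is 1.23 above the all-gene median. S100A6, a calcium-binding protein, had a signal of 378 in superficial and 35.6 in deep cartilage, 10.6-fold higher. VIM, vimentin, had 15195 in superficial and 8092 in deep cartilage, 1.88-fold higher. ANXA2, an annexin, was at least 233-fold higher, PFN1, profilin, at least 162-fold and ANXA1 at least 129-fold.

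Genes that most cells use were also in part above background on the superficial array only. Of 47 such genes on the array, 17 were so (44.7% of those above background on either, against 60.8% of all genes). None was above background only in deep cartilage, 19 were measured on both and 9 were above background on neither. EIF1, a translation initiation factor, had a signal of 3309 in superficial and 2821 in middle cartilage but was not well above background in deep cartilage. The same held for B2M, beta-2 microglobulin, at 1281 in superficial cartilage. Over all genes, of those above background in superficial cartilage 33% were also above background in deep cartilage, and in the top quartile of genes by superficial signal this share was 38.1%. Of genes above background in deep cartilage, 76.3% were also seen in superficial cartilage. How much of the surface-only pattern of any list comes from this difference in detection was not tested.

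Cytosolic ribosomal proteins were the list measured most completely, with 36 of 52 genes on both arrays and a median of -0.27, which is 0.54 above the all-gene median. Of the 36, 5 were at least 2-fold higher and 8 lower, and relative to the all-gene median 12 were higher and 5 lower. RPS4X had a signal of 8555 in superficial and 8530 in deep cartilage, a difference of 0.00, and RPL32 was within 1.09-fold. RPL10L, a near copy of RPL10 with which its probes may share signal, was 34.6-fold higher at its reported probe. RPL8 had 2387 in superficial and 21773 in deep cartilage, 9.12-fold lower.

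Proteasome subunits were seen mostly in superficial cartilage only, 20 of 38 on the array (80.0% of those above background on either, against 60.8% of all genes), with 1 (PSMA5, at least 418-fold lower in superficial cartilage) only in deep cartilage and 4 on both. Oxidative phosphorylation genes had 12 of 38 only in superficial cartilage (60% of those above background on either) and 7 on both, with none at least 2-fold higher and 4 lower. Of these 7, 2 were at least 2-fold lower relative to the all-gene median and none at least 2-fold higher. UQCRC2, a core subunit of complex III, had a signal of 94.9 in superficial and 1728 in deep cartilage and was lower at both sites, by -4.19 and -4.93.

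Cell cycle genes were mostly above background on neither, 23 of 33, and so were antigen presentation and interferon genes, 23 of 36. The same held for all genes named on the array, with 9264 of 13704 above background on neither. TYMS, thymidylate synthase, was seen only in deep cartilage, at least 519.5-fold lower in superficial cartilage. Of 33 genes of apoptosis and autophagy, 7 were measured on both, with 4 at least 2-fold higher and 1 lower. BCL2L2, a survival protein, had 150 in superficial and 19.8 in deep cartilage, 7.57-fold higher, but was lower with quantile normalization. WIPI1, an autophagy protein, had 128 in superficial and 2267 in deep cartilage, 17.7-fold lower at the reported probe, but its other site was above background only in superficial cartilage, at least 14.4-fold higher.

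Of 27 genes of hypertrophy and mineralisation, 10 were seen only in superficial cartilage and 3 on both. The 10 were 76.9% of those above background on either array, against 60.8% of all genes. TNFRSF11B, osteoprotegerin, the decoy receptor that blocks osteoclast formation, had a signal of 1602 in superficial, 88.4 in middle and 46.6 in deep cartilage, 34.4-fold higher with an SD of 0.02 between 2 probes. Of 29 genes of ion, water and solute transport and mechanosensing, 8 were seen only in superficial cartilage (61.5% of those above background on either) and 4 on both. PIEZO2, a mechanically gated channel, was at least 59.15-fold higher in superficial cartilage, and GJA1, connexin 43, had 185 in superficial, 2604 in middle and 421 in deep cartilage, 2.27-fold lower, and its other sites were lower too.

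Most of the largest measured differences fell on genes outside the matrix and signalling lists. Higher in superficial cartilage were STX17, a fusion protein of autophagosomes, with a signal of 1918 in superficial and 14.3 in deep cartilage (135-fold), and UPK1A, a membrane protein of the urinary tract lining, with 1504 in superficial and 12.7 in deep cartilage (119-fold). OCIAD1 was 101-fold higher, AHSA1, an activator of HSP90, 87.9-fold, ACY1, aminoacylase, 71.3-fold, FKBP9, an isomerase of the endoplasmic reticulum, 68.6-fold and ACKR4, a scavenging chemokine receptor, 49.8-fold. Several of the deep signals lay within a few units of the floor of 8.59, among them 12.7 for UPK1A and 14.3 for STX17.

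Lower in superficial cartilage by the largest measured amount among genes with a symbol other than a locus number was PPP3CC, a catalytic subunit of calcineurin, with a signal of 4.18 in superficial and 2065 in deep cartilage (494-fold). ASL, argininosuccinate lyase of the urea cycle, had 25.4 in superficial and 8272 in deep cartilage, 326-fold lower. CDC7, a kinase that starts DNA replication, was 300.5-fold lower and BHMT, a methyltransferase of homocysteine, 282.5-fold. MPZL1, a surface glycoprotein, had 33.5 in superficial and 3255 in deep cartilage at its reported probe, 97.2-fold lower with an SD of 0.71 between 4 overlapping probes.

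Genes seen on 1 array only gave larger bounds still. In superficial cartilage only, TFPI2, an inhibitor of serine proteases in matrix, had a signal of 4805 in superficial and 836 in middle cartilage and was at least 560-fold higher than in deep cartilage, and PRNP, the prion protein gene, was at least 455-fold higher. HNRNPD, which binds AU-rich mRNA, was at least 388-fold higher, with 3328 in superficial and 6016 in middle cartilage. In deep cartilage only, MRPL18, a mitochondrial ribosomal protein, was at least 2688-fold lower in superficial cartilage, MAPKAPK5, a stress-activated kinase, at least 2040-fold and UBR7, a ubiquitin ligase, at least 1555-fold. Of the bounds, 759 genes seen only in superficial cartilage and 151 seen only in deep cartilage passed 16-fold.

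Differences measured at more than 1 site rest on more than 1 probe sequence. Among the 47 genes at least 4-fold apart with several separate measured sites, 41 had all measured sites on the same side of 0 and 32 had every measured site at least 4-fold apart, 12 higher and 20 lower in superficial cartilage. Besides HSPA5, HAPLN1 and RPL10L, the 12 included HNRNPU, an RNA-binding protein of the nucleus, at 2.52 and 2.86, and GDI2, a regulator of Rab proteins, at 4.20 and 5.90. Besides COMP, GPX3 and UQCRC2, the 20 included PPP1R7, a regulator of protein phosphatase 1, at -5.93 and -6.76, and PDCD4, a translation inhibitor, whose 3 sites lay between -2.80 and -2.52. The genes of these 2 sets outside the lists, HNRNPU, GDI2 and PDCD4, were chosen for naming after their values were seen.

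Markers of other cell types were examined beside these results. Synovial fibroblast markers had 6 of 9 above background only in superficial cartilage and COL6A3 on both. The 6 were 85.7% of those above background on either array, against 60.8% of all genes. They included COL1A1 (4.18 in superficial and 7.30 in deep cartilage) and COL1A2 (6.09 and 8.01 at its reported probe). Both deep values lay under the deep floor of 8.59, so these genes have no bound at the reported probe. The list had a summed signal of 5844 in superficial and 408 in deep cartilage. Most of the sum came from VCAM1, COL3A1 and COL6A3, and CDH11, a cadherin of these cells, had 263 and PDGFRA, a growth factor receptor, 221 in superficial cartilage. FAP and CD248 were above background on neither. The osteoclast list summed to 1648 in superficial and 13.3 in deep cartilage, nearly all from CTSK, and ACP5 and CALCR were above background on neither. The bone cell list summed to 501 in superficial and 37.9 in deep cartilage, nearly all from IBSP. The part of such cells in the surface results was not tested.

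Most markers of blood and vessels were low in both layers, with exceptions in the macrophage list. That list summed to 25550 in superficial and 28109 in deep cartilage, nearly all from 1 site of PTPRC, whose 6 overlapping probes averaged 12774 in superficial and 14854 in deep cartilage while its other sites were near or below the floor. CTSS, cathepsin S, was above background only in superficial cartilage, at 285 and 211 at its 2 sites, as was CD68 at 7.11. CD14, CD74, TYROBP and the C1Q genes of that list were above background on neither. The summed signals for lymphocytes were 10.6 in superficial and 21.6 in deep cartilage, and for neutrophils 2.11 in superficial and 5.15 in deep cartilage. Endothelium summed to 34.2 in superficial and 65.5 in deep cartilage, and red blood cells to 4.70 in superficial and 12.4 in deep cartilage. Skeletal muscle (50.4 in superficial and 78.9 in deep cartilage), adipocyte (4.95 in superficial and 8.44 in deep cartilage) and epithelium lists (10.9 in superficial and 8.88 in deep cartilage) were likewise low. Pericyte and smooth muscle markers summed to 177 in superficial and 18.9 in deep cartilage, nearly all from TAGLN, and nerve and Schwann cell markers to 4317 in superficial and 78.2 in deep cartilage, nearly all from PMP22. The reported PMP22 probe was above background only in superficial cartilage, and 2 overlapping probes of its other site were measured on both, at log2 differences of 5.30 and 5.41.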

How the data were processed

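Labelled cDNA of laser-captured horse tissue was hybridised to Agilent arrays with probes of 60 bases. The deposited spot intensity is the processed signal of Agilent Feature Extraction 10.7.3.1, background-subtracted and detrended within each array per the file headers. The deposited series table holds a ratio, which is the authors' processed signal over the median of its array: set against the scanner values it had a log2 correlation of at least 0.999998 and a median of 1, and centring per gene was not found. Of 45220 spots, 1417 were controls and were left out, spots flagged as outliers were left out, and spots of a probe were averaged. No spot was saturated.

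Each array's log2 signal was reduced by its 75th percentile, taken over the 1765 probes that were well above background on each of the 6 arrays. Probes were named from the files' descriptions with the help of a RefSeq gene table (assembly TB-T2T, from which only names were taken): 13534 by gene number, 8987 by symbol, 622 by gene name, 600 by a symbol that the table lacks, 184 by older symbol and 124 by accession, while 19552 had no name. The reported probe of a gene was the one with the highest mean value over the 6 arrays. Probes sharing a run of 20 bases were treated as 1 site.

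Named genes were the 15 largest measured differences per direction among genes whose probes lay on the same side, the 10 largest bounds per direction, the 4 markers, and members of the 35 gene lists (1029 of 1240 members on the array) and 16 marker lists (112 of 149). Not all of them are named in the text, some results are not reported here, and genes known only by a locus number are not named. The members, lists and markers were chosen with earlier results of these data known. Alternatives were other scaling sets, quantile normalization, normexp correction with limma 3.58.1 (offset 50), the series table, the mean over probes, other filters on dim probes and other thresholds. The counting and bounds were tested on simulated data. Python 3.11.15 and R 4.3.3 were used. No test was run, since 1 array per layer allows none.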

Additional observations from a re-analysis of the deposited data

How the results depend on the processing

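The counts of 144 genes at least 4-fold higher and 266 at least 4-fold lower in superficial cartilage, and the median difference of -0.81, depended on the zero point. With the 75th percentile over all probes there were 90 higher and 539 lower and the median was -1.73. With the 75th percentile over probes above background on both arrays the counts were 196 and 165 and the median was -0.13. The 50th percentile over all probes and the authors' series table each gave 235 higher, 123 lower and a median of 0.27, the other side of 0. Quantile normalization gave 59 higher, 751 lower and a median of -2.25, and normexp correction 75 higher. The percentile sets shift every difference by a constant, -0.91, 0.68 and 1.09 in the order given. Relative to the all-gene median, chosen after seeing the data, 154 were lower, and over the 126 genes with at least 2 separate sites, also chosen after seeing the data, 15 were higher and 27 lower. A wider filter on dim probes gave 682 higher and 636 lower of more genes, 1505 genes seen only in deep cartilage and 25 of 34 list medians above the all-gene median in place of 11 of 21. A narrower one gave 50 higher and 230 seen only in deep cartilage. Thresholds of 2-fold and 8-fold gave 226 and 86 higher and 572 and 132 lower. The other counts, including the 2700 genes seen only in superficial cartilage, stayed within 1.5 times. For what was not shown by the construction of a setting, the cause was not tested.

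Of 187 named genes at least 2-fold apart or with a bound, 5 changed side under 1 of the 9 alternatives each: BCL2L2 (-0.13), CD9 (-1.11) and EGFR (-0.36) with quantile normalization, LRP1 (-1.77) with normexp correction and HSPA9 (2.10) with the mean over probes. The HSPA9 mean counts 5 overlapping probes of 1 site singly. Of the 1655 values of these 187 genes, 1184 moved by more than the spread between separate sites without changing side, and 466 moved less. A bound that would have crossed 0 was left out, so it could not count as a change of side. Of 184 values of 21 list medians relative to all genes, 21 moved by more than the spread between separate sites. None changed side after having been at least 2-fold away, but lists nearer the all-gene median could not be counted so. Crossing it were heat shock proteins (-0.72 to 3.16), genes that most cells use (-0.61 to 1.02), matrix glycoproteins (-0.73 to 0.45) and acute-phase genes (-0.30 to 0.53). The cytokine, transcription factor, oxidative phosphorylation and protease inhibitor lists crossed it too, and the other lists stayed on 1 side. Detection in deep cartilage limits which genes could be compared: of those above background in superficial cartilage 33% were also above it there, and 25.5% to 38.1% by quartile of superficial signal. No paired analysis was possible because each layer has 1 array.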
